A study of Mus musculus with 2 samples.

Results

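M-MDSC 2 is 1 of 26 cell type names that the authors gave to leukocytes of a mouse melanoma, and it was held by 226 of 10050 annotated cells. Its members are all cells with that name in the deposited annotation, 36 of 4665 in the APOE2 library and 190 of 5385 in the APOE4 library. MDSC is the usual short form of myeloid-derived suppressor cell, a term for neutrophil-like and monocyte-like cells found in tumours, and M- and G- usually mark the monocytic and granulocytic kinds. The host mice were knock-ins of human APOE2 or of human APOE4, 6 mice for each allele. All of them carried YUMM1.7, a mouse melanoma line injected under the flank skin as 100000 cells in Matrigel and taken out on day 19. From each mouse 10000 cells that were CD45+ and DAPI− (leukocytes that exclude the dye) were sorted, and the 6 mice of a genotype were pooled into 1 library of 3′ transcripts, in which mice cannot be told apart. No source used here gives the strain, age or sex of the mice. APOE is a lipid-carrying protein whose human variants differ in receptor binding.

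Type I interferons and interferon gamma act through separate receptors. Type I interferons (alpha and beta) lead to transcription factors that bind a DNA element called the ISRE and turn on antiviral genes such as the Ifit family, Rsad2 and Isg15. Interferon gamma leads to factors that bind another element, the GAS, and turn on Irf1, guanylate-binding proteins and antigen presentation, with much overlap between both sets. Neutrophils respond to both, and neutrophils with high antiviral transcripts are a recurring group in tumours and infections.

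With 1 library per genotype there was no test, so each difference compares 2 libraries and not 2 genotypes. UMIs (unique molecular identifiers, each counting 1 captured molecule) were summed over the cells of a label in a library and scaled to the same total in each library, giving CPM. The label held 62385 UMIs in APOE2, with a median of 1492.5 UMIs and 645.5 genes per cell, and 359692 UMIs in APOE4, with medians of 1667 and 723. A single UMI was worth 16 CPM in APOE2 and 2.78 CPM in APOE4, so the APOE2 side sets the precision. Intervals are exact 95% intervals of counting error only, since they leave out the spread between mice. The cells were named from the same expression values that are compared here, so comparisons with other labels are descriptions, and the cell numbers of 36 and 190 are not compared. Both matrices shared 9 barcodes, and none of the 8 that annotated cells of both libraries shared belonged to the label.

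The expressed genes did not match a monocytic name. The 12 neutrophil markers summed to 62723 CPM in APOE2 and 58155 CPM in APOE4, near the 58932 and 51717 CPM of M-MDSC 1 and the third highest of the 26 labels. S100a9, a subunit of the neutrophil protein calprotectin, stood at 26914 and 24985 CPM, and Csf3r, the receptor of the neutrophil growth factor G-CSF, at 1395 and 1721 CPM. The 8 monocyte markers summed to 369 and 1118 CPM, against 5938 and 8619 CPM in Monocytes 2. The sums were 195 and 359 CPM in M-MDSC 1, 223 and 558 CPM in G-MDSC 1, and 2248 and 1772 CPM in G-MDSC 2. The members F13a1 and Vcan were at 0 in both libraries. Other members were detected: Ly6c2 at 208 and 762 CPM, Ly6i at 80.2 and 209, Csf1r at 64.1 and 94.5, and Ccr2 at 16 and 25. These 4 were above their M-MDSC 1 levels in both libraries. Ly6c2 gave most of the APOE4 sum, and it came from 53 of 190 cells. The 9 macrophage markers summed to 513 and 306 CPM, against 17500 and 15319 CPM in Mø cluster 1, and B cell and mast cell markers were at 0. Ly6g, the antigen often used to sort neutrophils, had 0 and 6 UMIs, as in M-MDSC 1 where it stood at 0 and 3.76 CPM. The label is therefore called by its deposited name below, for cells with neutrophil transcripts.

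The genes highest in M-MDSC 2 against the other 3 MDSC labels are known interferon-induced genes. Of 1344 measured genes (a mean of at least 100 CPM over both libraries and at least 10 UMIs in all), 212 were at least 2-fold above the mean of the other 3 labels, which is 15.8%, and 35 were at most 0.5 of it, which is 2.6%. Since the cells were named on these genes, the figures describe the label. A gene counted as measured by its level in M-MDSC 2 itself, so genes that are low here dropped out and these counts lean toward the higher side. Among the 36 measured of 47 listed antiviral genes, 35 were past 2-fold above the others, and the median log2 difference was 2.96, against 0.21 over all measured genes. The 9 measured guanylate-binding proteins and immunity-related GTPases, which coat and break open the vacuoles of intracellular pathogens, were all past 2-fold, with a median log2 difference of 3.13.

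The largest ratio above the other labels belonged to Ifit2, a protein of the family that binds foreign RNA and blocks its translation. It averaged 865 CPM in M-MDSC 2 and 12.5 CPM over the other 3 labels, 69-fold apart. Cxcl10, a chemokine that draws CXCR3-bearing T and NK cells, averaged 2258 against 37.6 CPM, a ratio of 60.1. Ifit3 averaged 1966 against 49.5 CPM, and Ifit1 3001 against 103 CPM. Rsad2 (viperin, an enzyme that makes a chain-terminating nucleotide) averaged 4431 against 195 CPM. Usp18, a protease that strips ISG15 and dampens type I interferon receptors, averaged 472 against 19.1 CPM. The other leading genes by the fixed rule were Ifit1bl1, Ifit3b, Gbp5, Herc6, Ifi47, Gbp3, Stat2, Gbp2 and Cmpk2, with ratios from 12.5 for Cmpk2 to 39 for Ifit1bl1.

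**Figure D1:**
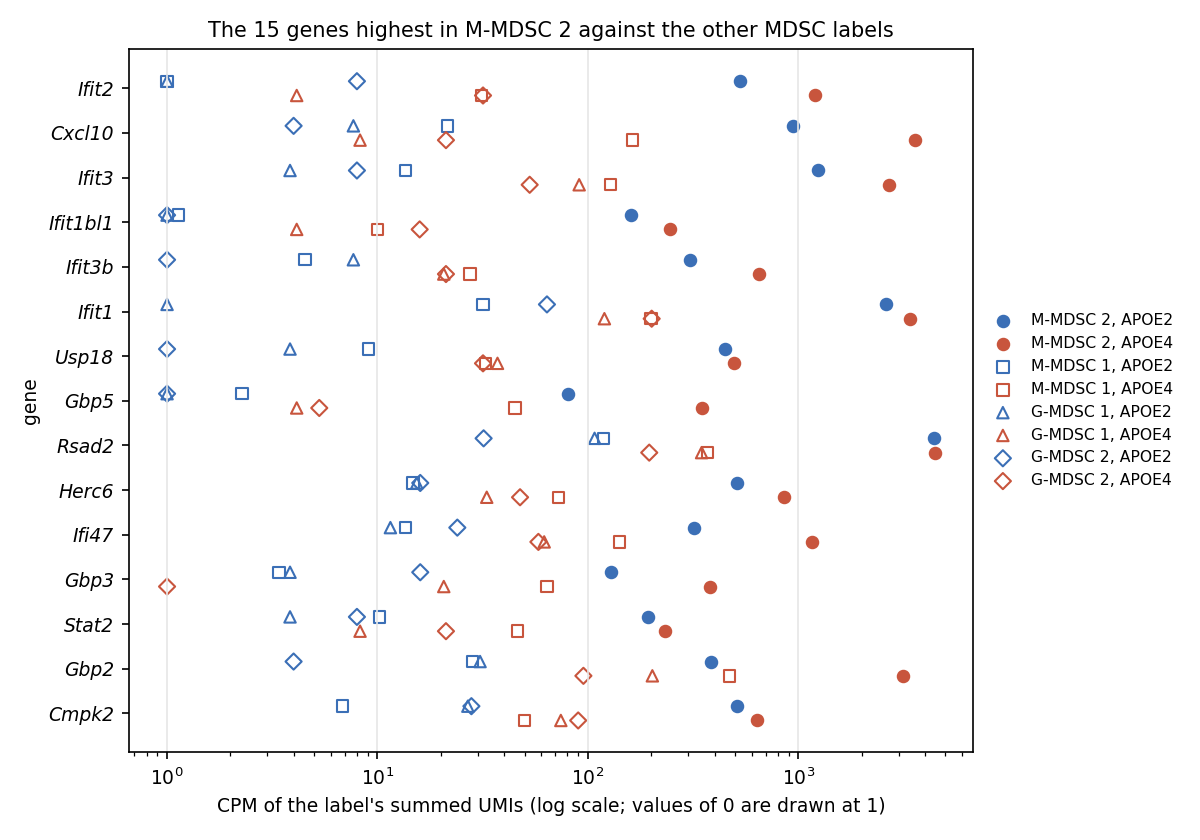
Level of the 15 leading genes in CPM (log scale) in each of the 4 MDSC labels, with blue marks for the APOE2 library and red marks for APOE4. Filled circles are M-MDSC 2, which lie to the right of the open marks of the other labels in the same library for every gene shown, and most open red marks lie to the right of the open blue ones.

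Several leading genes lie side by side in the genome (GENCODE M21 on mm10). Ifit2, Ifit3, Ifit1bl1, Ifit3b and Ifit1 fall between chr19:34550694 and 34650009. Gbp5, Gbp3 and Gbp2 fall between chr3:142493978 and 142638008. Rsad2 and its neighbour Cmpk2, a mitochondrial nucleotide kinase, fall between chr12:26442746 and 26479837. Reads that fit near-identical copies can be lost or split, so single values within the Ifit and Gbp families carry that uncertainty.

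Granule genes were among those lower in M-MDSC 2 than the mean of the other labels. Of 17 measured granule and calprotectin genes, 11 were at most 0.5 of the mean of the other labels, with a median log2 difference of -1.89. Camp, a granule antimicrobial peptide, averaged 9894 CPM in the other 3 labels and had no UMI in M-MDSC 2, which allows up to 48.1 CPM in APOE2 and 8.34 CPM in APOE4. Ngp averaged 8125 CPM in the others and 4.17 CPM here, and Ltf (lactoferrin) 2898 and 28.9 CPM. These means came almost wholly from G-MDSC 2, with Camp at 29879 and 29472 CPM and Ltf at 8698 and 8653 CPM. M-MDSC 1 held 2.27 and 1.25 CPM of Camp, 2.27 and 3.76 CPM of Ngp, and 21.5 and 17.5 CPM of Ltf. For these genes M-MDSC 2 was thus far below G-MDSC 2 but near M-MDSC 1. G-MDSC 1 held 7.68 and 0 CPM of Camp and no Ltf. The rest of the 10 lowest were Chil3, Adpgk, Serpinb1a, Cd177, Ly6g, Lcn2 and Aldh2, and all 10 but Lcn2 were under the filter on low values in M-MDSC 2. Immature neutrophil markers were highest in G-MDSC 2, at 87342 and 88592 CPM. They summed to 433 and 1184 CPM in M-MDSC 2 and to 540 and 531 CPM in M-MDSC 1, so that M-MDSC 2 was the lower of both in APOE2 and the higher in APOE4. The granule list made up a median of 3.47% and 3.82% of a cell's UMIs in M-MDSC 2 and 4.32% and 3.71% in M-MDSC 1. It made up 14.9% and 13.2% in G-MDSC 1 and 46.8% and 45.2% in G-MDSC 2.

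The elements named above were looked for in the 250 bases before the RefSeq transcript starts (GRCm38.p6, the patch build of mm10), on both strands. The ISRE core was written as GAAANNGAAA and found in 10 of the 14 leading genes with a RefSeq start (71.4%), against 3.46% of 27025 genes. These genes are not independent, since most belong to the Ifit and Gbp clusters. The stretches around the matches of Ifit3 and Ifit3b have the same letters. The windows below are those of 5 leading genes, read 5′ to 3′ on the strand of the gene, with the match in capitals. Where the match lies on the opposite strand, the capitals are its reverse complement.
Ifit1, chr19:34640770-34640809, plus strand: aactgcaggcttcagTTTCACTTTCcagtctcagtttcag
Ifit3, chr19:34583358-34583397, plus strand: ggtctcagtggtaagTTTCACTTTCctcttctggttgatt
Rsad2, chr12:26456548-26456587, minus strand: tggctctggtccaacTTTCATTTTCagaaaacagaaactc
Cxcl10, chr5:92349078-92349117, minus strand: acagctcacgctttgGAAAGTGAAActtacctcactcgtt
Gbp2, chr3:142620589-142620628, plus strand: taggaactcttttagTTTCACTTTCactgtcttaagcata
In these genes the match began 104 bases (Ifit1), 156 bases (Ifit3), 120 bases (Rsad2), 213 bases (Cxcl10) and 59 bases (Gbp2) before the start. Ifit1 and Ifit3 each held a second match closer to the start. A match describes the letters of the window and does not show that a factor was bound there. Ifit2, the gene with the largest ratio, held no match to this core in its window.

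Of the 5 genes taken as markers of the label, Slfn4, Rsad2, Ifit1 and Irg1 were carried by most of its cells and Il23a by few. Slfn4, a Schlafen family gene of myeloid cells, stood at 3030 CPM in APOE2 and 3564 CPM in APOE4. Rsad2 stood at 4408 and 4454 CPM and Ifit1 at 2597 and 3406 CPM. Irg1 (also Acod1), which makes the antimicrobial metabolite itaconate, stood at 2965 and 4268 CPM. Il23a, a subunit of the cytokine IL-23, stood at 96.2 and 159 CPM. None of the 5 differed 2-fold between the libraries, and the APOE4 value was the higher in each, by 1.01-fold (0.889 to 1.15) for Rsad2 and 1.44-fold (1.24 to 1.69) for Irg1.

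Shares of cells with a UMI were compared after each cell was thinned to 500 UMIs, a depth that every cell of these labels reached. Slfn4 was then detected in 63.9% of 36 APOE2 cells (46.2% to 79.2%) and 74.7% of 190 APOE4 cells (67.9% to 80.8%), and before thinning in 86.1% and 96.3%. M-MDSC 1 showed Slfn4 in 15.9% and 27.4% of thinned cells, and lymphocytes, which should lack it, in 0.632% and 0.315%. Rsad2 was found in 61.1% and 75.8% of thinned cells, against 3.88% and 12.6% in M-MDSC 1 and 1.74% and 5.55% in lymphocytes. Median depths were 1492.5 and 1667 UMIs in M-MDSC 2, 1631 and 1619 in M-MDSC 1, and 3806 and 3625.5 in lymphocytes. Il23a appeared in 2.78% and 3.68% of thinned cells, near the 2.33% and 2.43% of M-MDSC 1. Counted per cell, 28 of 36 APOE2 cells (77.8%) and 176 of 190 APOE4 cells (92.6%) held at least 2 of the 5 markers, against 9.9% and 23.8% of M-MDSC 1 and 1.11% and 2.9% of lymphocytes. Just 1 cell of the label in each library held none of them.

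By the median cell, the antiviral list took up more of the transcripts in M-MDSC 2 than in any other label. Its share of a cell's UMIs had a median of 3.65% in APOE2, ranging from 1.14% to 11.3%, and of 5.2% in APOE4, ranging from 1.04% to 14.3%. The medians were 0.297% and 0.89% in M-MDSC 1, and the next highest label of the 26 was Monocytes 2 with 2.22% and 3.02%. No M-MDSC 1 cell reached the median of M-MDSC 2 in its own library, while 32 of 515 and 198 of 453 reached its lowest cell. The ranges of M-MDSC 1 and M-MDSC 2 therefore overlapped, in the APOE4 library more than in APOE2. Monocytes 2 overlapped further: 187 of 206 and 520 of 526 of its cells reached the lowest M-MDSC 2 cell. The median of M-MDSC 2 was reached by 37 and 42 of them, and by a few cells of cDC 2, CD4+ T cells, CD8+ T cells and Diverse.

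**Figure D2:**
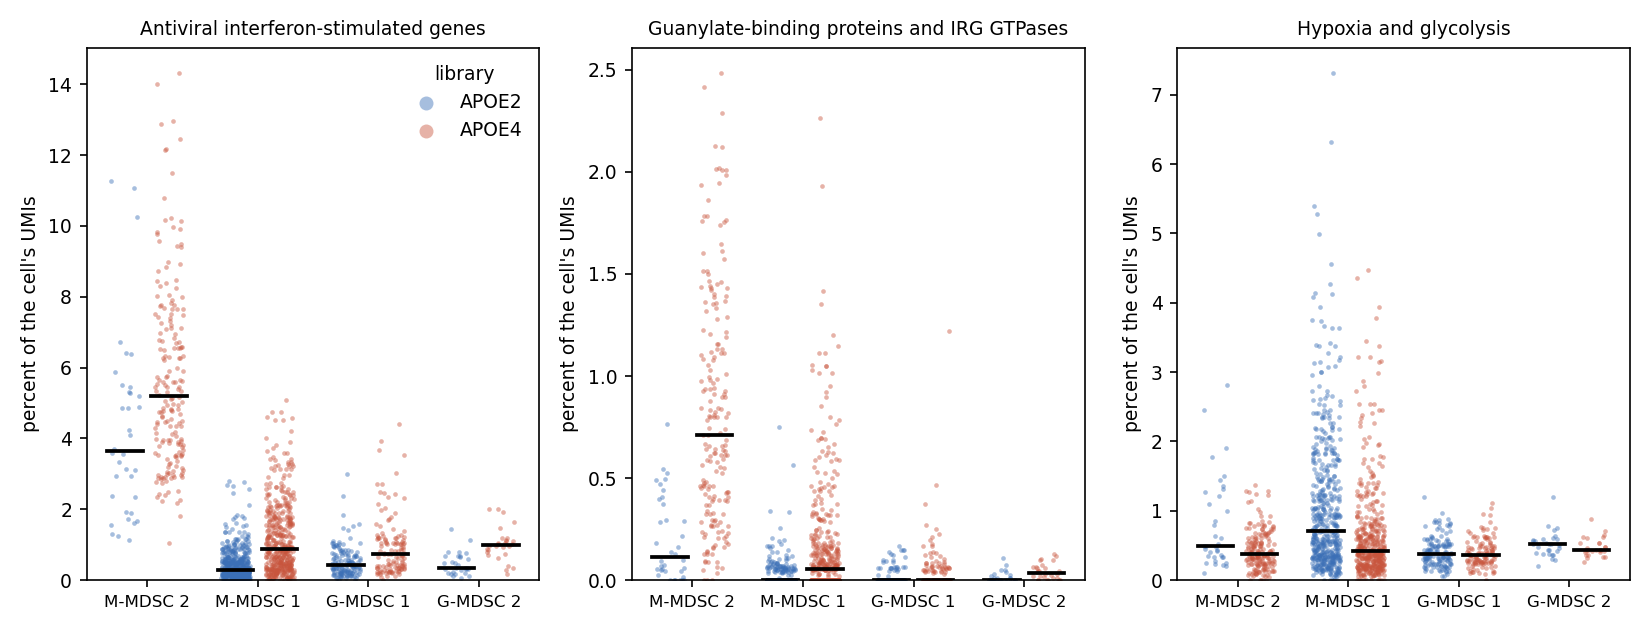
Each point is a cell, placed by the percent of its UMIs from the antiviral genes (left), the guanylate-binding proteins and immunity-related (IRG) GTPases (middle) or the hypoxia and glycolysis genes (right), for the 4 MDSC labels, and black bars are medians. In M-MDSC 2 the antiviral medians were 3.65% in APOE2 and 5.2% in APOE4, the GTPase medians 0.115% and 0.711%, and the hypoxia medians 0.488% and 0.375%.

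Between the libraries, 108 of the 1344 measured genes of M-MDSC 2 were at least 2-fold higher in APOE4, which is 8.04%, and 88 were at most 0.5 of the APOE2 value, which is 6.55%. The median log2 ratio over all measured genes was 0.10. Among the lists, guanylate-binding proteins, immunity-related GTPases and MHC class I genes lay on the higher side, hypoxia and glycolysis genes on the lower side, and chemokines on both. These counts rest on 36 cells on the APOE2 side and moved with the thresholds.

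Guanylate-binding proteins and immunity-related GTPases were higher in APOE4. Of the 9 measured of 19 listed members, 8 were past 2-fold and the median log2 ratio was 1.85. Gbp2 stood at 385 CPM in APOE2 and 3133 CPM in APOE4, from 10 of 36 and 166 of 190 cells, a ratio of 8.14 (5.45 to 12.8). Ifi47 stood at 321 and 1159 CPM, Igtp (also Irgm3) at 128 and 626 CPM, and Gbp5, which promotes inflammasome assembly, at 80.2 and 350 CPM. Gbp4 was counted 0 times in the APOE2 cells and 53 times in the APOE4 cells, which is at least 3.06-fold higher when a floor of 3 UMIs stands for the APOE2 value. After thinning to 500 UMIs, Gbp2 was detected in 13.9% of APOE2 cells (4.67% to 29.5%) and 65.3% of APOE4 cells (58% to 72%), in M-MDSC 1 in 1.17% and 13.9%, and in lymphocytes in 3.79% and 4.41%.

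The transcription factor Irf1, itself induced through a GAS element, stood at 112 CPM in APOE2 and 979 CPM in APOE4, from 5 and 106 cells, a ratio of 8.72 (4.19 to 21.9). Other signalling factors were closer: Stat2 at 192 and 234 CPM, Irf7 at 1186 and 1532 CPM, and Irf9 at 224 and 167 CPM. Of 13 measured signalling factors, 2 were past 2-fold higher, Irf1 and Jak2, and the median log2 ratio was 0.37. The receptor chains Ifngr1, at 192 and 211 CPM, and Il10rb, at 257 and 209 CPM, were within 2-fold. Of the interferons themselves, Ifnb1, Ifna2 and Ifna4 had 0 UMIs, which allows up to 48.1 CPM in APOE2 and 8.34 CPM in APOE4, and Ifng had 1 UMI.

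Genes of MHC class I presentation were also higher in APOE4, with 9 of 17 measured members past 2-fold, 1 below 0.5 and a median log2 ratio of 1.23. H2-K1, a classical class I heavy chain, stood at 1090 and 2561 CPM, a ratio of 2.35 (1.84 to 3.05). H2-T23 stood at 337 and 870 CPM, the immunoproteasome subunit Psmb9 at 192 and 589 CPM, and the peptide transporter Tap1 at 208 and 564 CPM. B2m, the light chain they share, stood at 2869 and 4195 CPM, a ratio of 1.46. The member below 0.5 was H2-T24, at 144 and 69.5 CPM. Class II genes did not follow: Cd74 stood at 192 and 170 CPM and H2-Ab1 at 176 and 36.1 CPM, from 7 and 13 cells.

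The antiviral genes differed less between the libraries. Of 36 measured members, 7 were past 2-fold higher and 1 lower, the median log2 ratio was 0.66, and 33 had a ratio above 1. Ifit3, at 1234 and 2697 CPM, Ifit2, at 529 and 1201 CPM, Slfn5, at 481 and 1118 CPM, and the nucleic acid sensor Zbp1, at 401 and 904 CPM, were among those past it. Isg15, a ubiquitin-like modifier and the most abundant of the list, stood at 6620 and 7590 CPM, and Usp18 at 449 and 495 CPM. The member below 0.5 was Daxx, at 192 and 94.5 CPM. Among 10 measured genes of the sensor list, which holds other innate genes beside nucleic acid sensors, 4 were past 2-fold higher, Zbp1, Mndal, Nlrc5 and Tlr2. Tlr2, a receptor of bacterial lipoproteins, stood at 144 and 456 CPM, a ratio of 3.16 (1.63 to 7.04).

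**Figure D3:**
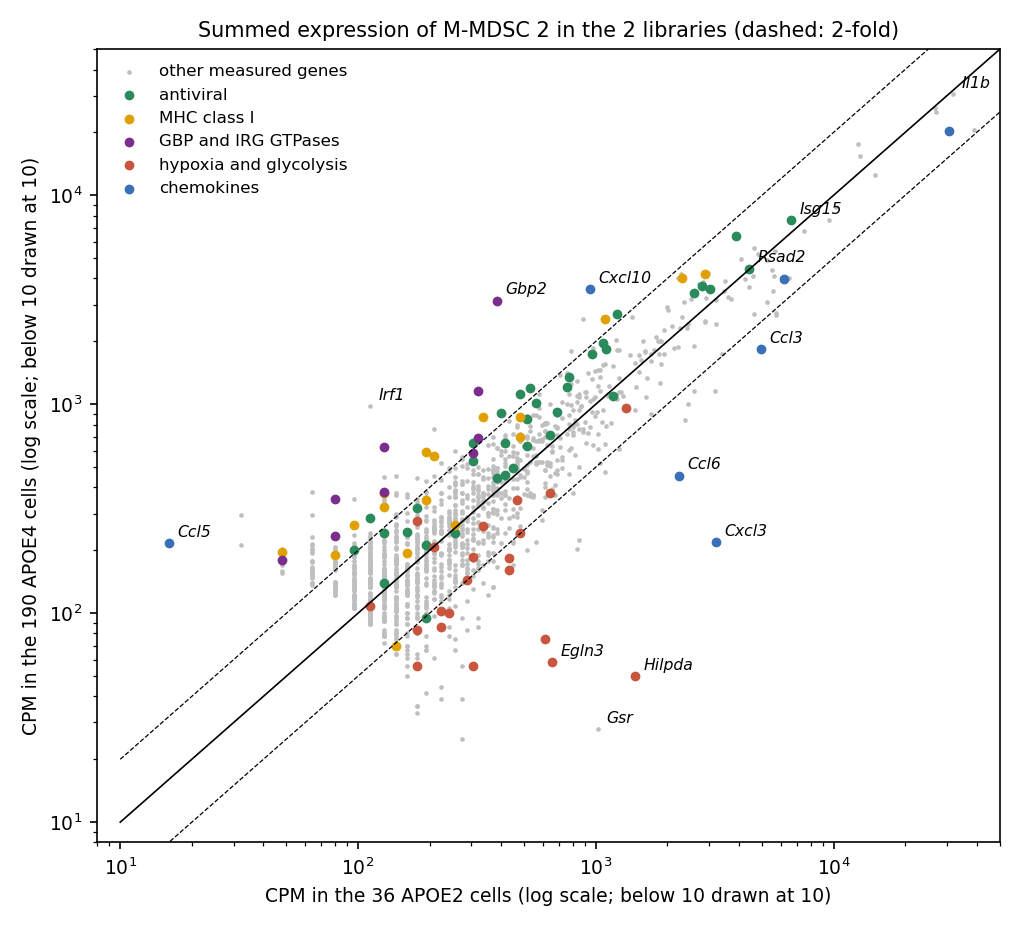
Each point is a measured gene of M-MDSC 2, placed by its CPM in the APOE2 library (x) and the APOE4 library (y), both on log scales, with the solid line at equal values and dashed lines at 2-fold. Coloured points are members of 5 lists, and Gbp2, Irf1 and Cxcl10 lie above the upper dashed line while Hilpda, Egln3, Cxcl3 and Gsr lie below the lower one.

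The remaining genes with the highest APOE4 ratios were of mixed function. Samhd1, which degrades deoxynucleotides, stood at 882 and 2558 CPM, a ratio of 2.9 (2.21 to 3.88), and was higher in APOE4 in all 21 labels outside the MDSC group with at least 20 UMIs of it. Sod2, a mitochondrial superoxide dismutase, had 2 UMIs in APOE2 and 106 in APOE4, a ratio of 9.19 (2.48 to 76.9). Ccl5, a chemokine of T cells, had 1 and 78 UMIs, a ratio of 13.5 (2.36 to 541), and 41 of the 78 came from 1 cell. Its log2 ratio ranged from 1.19 to 3.80 over the settings run. Ly6c2 stood at 208 and 762 CPM, from 4 and 53 cells. It is also a monocyte marker, and with Ly6i it accounts for most of the difference between 369 and 1118 CPM of the monocyte list. Whether monocyte transcripts had a part in the interferon differences was not tested.

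Lcn2, an iron-sequestering granule protein, stood at 64.1 CPM in APOE2 and 381 CPM in APOE4, from 3 and 41 cells, a ratio of 5.94 (2.27 to 22.1). Lcn2 was the one granule gene besides Ifitm6 (257 and 598 CPM) past 2-fold. The other measured granule genes were within 2-fold, the median log2 ratio of all 17 was 0.38, and S100a8 stood at 12904 and 15358 CPM. Slpi, a protease inhibitor, stood at 3398 and 1749 CPM, a ratio of 0.515 (0.443 to 0.601).

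The GAS element was written as TTCNNNGAA. It was found before the start of 5 of the 11 highest APOE4 genes with a RefSeq start (45.5%), against 8.13% of all genes and 2 of the 14 leading genes (14.3%). The ISRE core was found in 4 of the same 11 genes (36.4%), against 3.46% of all genes. Irf1 and Igtp, whose values are given above, are shown with the GAS in capitals. The window of Igtp also holds an ISRE core, downstream of the GAS and not overlapping it.
Irf1, chr11:53769909-53769947, plus strand: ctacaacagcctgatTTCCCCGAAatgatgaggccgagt
Igtp, chr11:58199496-58199534, plus strand: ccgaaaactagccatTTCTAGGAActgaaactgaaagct
The GAS of Irf1 began 90 bases before the start and that of Igtp 45 bases before it. The Gbp2 window printed above held an ISRE core and no GAS in these letters, and no cause of any ratio was tested.

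**Figure D4:**
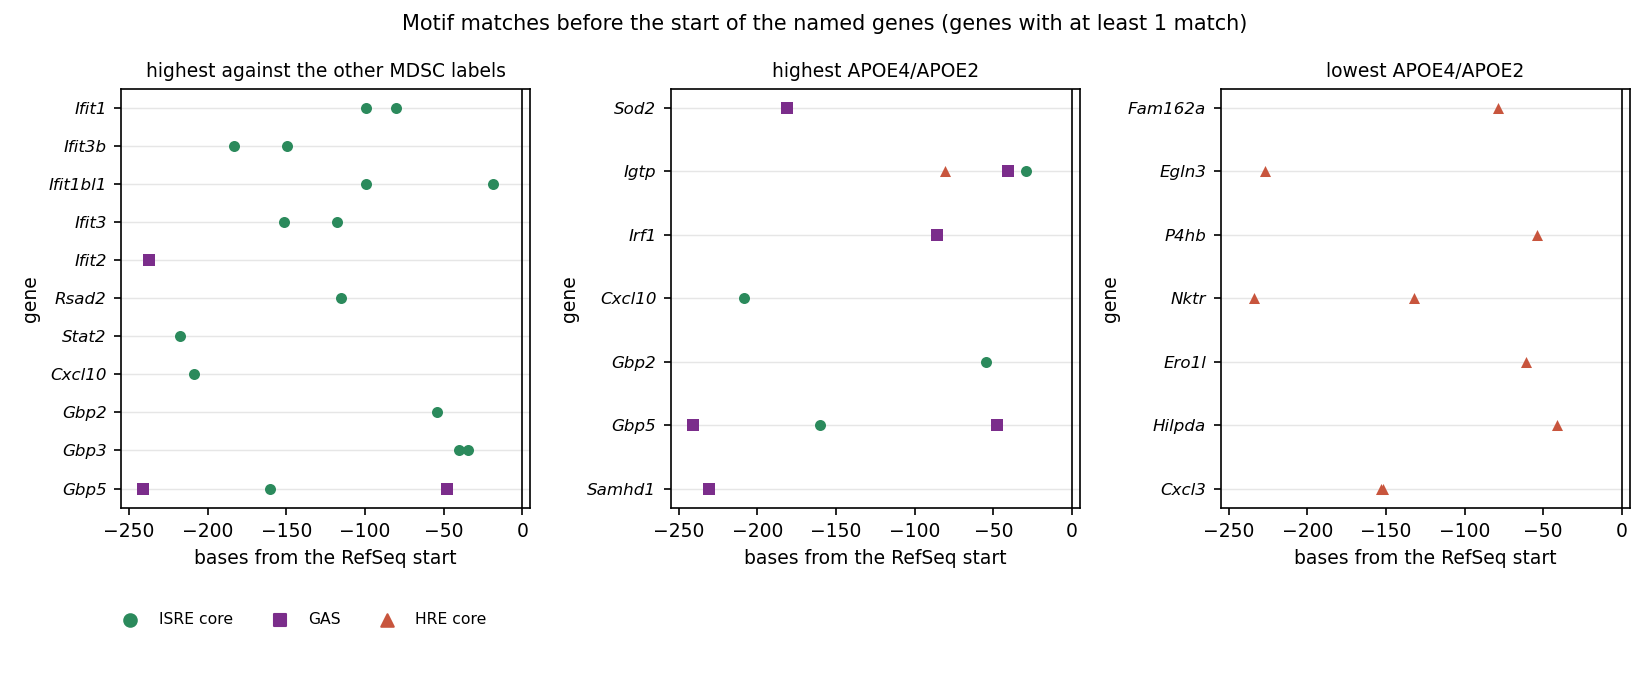
Position of each match, in bases from the RefSeq start (x axis, 0 is the start), for the genes of 3 named groups that held at least 1 match. Green circles are ISRE cores, purple squares GAS elements and orange triangles HRE cores, the low-oxygen element, and the triangles fill the panel of genes lowest in APOE4.

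Genes of hypoxia and glycolysis were lower in APOE4. They are targets of HIF1, which in low oxygen turns on sugar uptake, glycolysis and its own regulators. Of 21 measured members of 28 listed, 11 were at most 0.5 of the APOE2 value, none was past 2-fold higher, and the median log2 ratio was -1.08. Egln3, an oxygen-sensing hydroxylase, stood at 657 CPM in APOE2 and 58.4 CPM in APOE4, from 13 of 36 and 18 of 190 cells, 11.3-fold lower (6.5 to 20.1). Hilpda, which blocks lipid breakdown on droplets, stood at 1459 and 50 CPM, from 8 and 9 cells. Ero1l, an oxidase of the endoplasmic reticulum, stood at 609 and 75.1 CPM, from 8 and 26 cells. The glycolytic enzymes Ldha, at 433 and 184 CPM, Tpi1, at 305 and 55.6 CPM, and Gapdh, at 433 and 161 CPM, were lower too. Pkm, at 1346 and 962 CPM, and Eno1, at 208 and 209 CPM, were within 2-fold.

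The hypoxia difference lay in a minority of the APOE2 cells. A group of 4 APOE2 cells held 48% of the list's 590 UMIs, and 1 cell held 29 of the 91 UMIs of Hilpda. The richest 4 APOE2 cells held 25.9% of the antiviral list, 36.6% of the GTPase list and 41.7% of the chemokine list. The per-cell median of the list was 0.488% of UMIs in APOE2 and 0.375% in APOE4, while the upper quartiles were 1.24% and 0.587%. Without the richest cell of each library the median log2 ratio of the list was -1.05, and without the 10% of cells with the most UMIs it was -0.84. Equal weight for every cell gave -0.85, and thinning to 500 UMIs per cell gave -0.63. Outside the list, the 12 lowest genes also held Fam162a (273 and 25 CPM) and Higd1a (224 and 38.9 CPM), both known HIF1 targets. P4hb, a disulfide isomerase, stood at 273 and 38.9 CPM, Xbp1, a factor of the unfolded protein response, at 834 and 203 CPM, and Nktr at 850 and 225 CPM.

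The core of the hypoxia response element (HRE), written as ACGTG, was found before the start of 8 of the 11 hypoxia genes past 2-fold lower (72.7%) and 7 of the 11 lowest genes with a RefSeq start (63.6%), against 18.5% of all genes and none of the 14 leading genes. Being 5 letters long, it is common by base composition. Because the list was made of HIF1 targets, a high share in it follows from the choice of genes and says nothing about the libraries. The share among the other measured members of the list was not computed. Hilpda, Egln3 and Ero1l belong to both groups, so their shares are not separate results. Hilpda, Egln3 and Ero1l, the members of the hypoxia list with the lowest ratios, each held a match and are shown with it in capitals.
Hilpda, chr6:29272568-29272602, plus strand: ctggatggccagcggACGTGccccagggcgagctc
Egln3, chr12:54204084-54204118, minus strand: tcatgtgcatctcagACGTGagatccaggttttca
Ero1l, chr14:45318616-45318650, minus strand: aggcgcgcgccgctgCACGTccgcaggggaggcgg
The Hilpda window belongs to the second of its listed starts, and RefSeq names Ero1l as Ero1a.

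Chemokines went both ways. Cxcl10 stood at 946 CPM in APOE2 and 3570 CPM in APOE4, a ratio of 3.77 (2.91 to 4.99), and it came from 8 of 36 and 72 of 190 cells. Of its 59 APOE2 UMIs 30 came from 1 cell, and without the richest cell of each library the ratio was 6.84. Cxcl9, a close relative induced by interferon gamma, had 0 and 40 UMIs, the latter from 6 cells, and against the same floor it was at least 2.31-fold higher. Cxcl3, which attracts neutrophils through CXCR2, stood at 3206 and 220 CPM, 14.6-fold lower (11.2 to 19.2), from 12 and 13 cells. A single APOE2 cell held 104 of its 200 UMIs, and without the richest cells the ratio went from 0.0685 to 0.103. Ccl6 stood at 2244 and 456 CPM, 4.92-fold lower, and Ccl3 at 4953 and 1838 CPM, 2.69-fold lower. Cxcl2, the most abundant, stood at 30552 and 20212 CPM, a ratio of 0.661.

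Cytokines were mostly within 2-fold. Il1b, the secreted mediator released by inflammasomes, stood at 31947 and 30373 CPM and was found in all 226 cells. Osm, a cytokine of the IL-6 family, stood at 2453 and 1004 CPM, 2.44-fold lower in APOE4, and Il1a stood at 64.1 and 214 CPM, from 3 and 26 cells. Il18bp, an inhibitor of IL-18 induced by interferon gamma, stood at 80.2 and 167 CPM. Of 12 measured cytokine and inflammasome genes 2 were past 2-fold higher, 1 lower, and the median log2 ratio was 0.03.

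Gsr, glutathione reductase, was the gene lowest in APOE4. It stood at 1026 CPM in APOE2, from 23 of 36 cells, and 27.8 CPM in APOE4, from 9 of 190 cells, 36.9-fold lower (18.8 to 80.6). The other MDSC labels showed it too, at 1086 and 71.4 CPM in M-MDSC 1, 2070 and 107 CPM in G-MDSC 1 and 867 and 143 CPM in G-MDSC 2. Gsr was also lower in APOE4 in 14 of 20 labels outside the MDSC group. Of the other members of its list, Slc7a11, a cystine importer, stood at 2885 and 2474 CPM and Txn1 at 1587 and 2013 CPM, and the median log2 ratio of the 10 measured was -0.17.

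Other functions differed little between the libraries. Of 18 measured NF-kB and survival genes none was past 2-fold, and Mcl1, which keeps neutrophils alive, stood at 4232 and 3956 CPM. Among 21 measured surface and trafficking genes 3 were past 2-fold higher, the inhibitory receptor Pilra (144 and 370 CPM), Trem3 (112 and 292 CPM) and the adhesion molecule Icam1 (96.2 and 206 CPM). Among 11 maturation factors 2 were lower, Xbp1 and Klf2, and Klf2, at 1250 and 612 CPM, was past the threshold by so little that its ratio of 0.489 became 0.553 without the richest cells. Of 16 measured stress genes, which tissue dissociation can raise, Jun was lower (561 and 220 CPM) and Hsp90ab1 higher (80.2 and 175 CPM), with a median log2 ratio of -0.20. Among 9 respiratory chain genes Atp5j2 was lower, at 160 and 61.2 CPM. The median share of mitochondrial UMIs per cell was 0.326% and 0.318%.

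Genes tied to suppression and to APOE itself were also read. Arg1 had no UMI in the label and Nos2 had 1, although both enzymes are often used to define suppressor cells. Cd274 (PD-L1), which restrains T cells, stood at 577 and 723 CPM, 4.85 times the mean of the other MDSC labels. Vsir (VISTA) stood at 64.1 and 211 CPM, and Cd84 at 48.1 and 159 CPM. They were the 2 of 12 measured members past 2-fold higher in APOE4, against 8.04% of all measured genes. Vsir averaged 0.387 and Cd84 0.581 of the mean of the other MDSC labels. Over the 12 members 5 were past 2-fold above those labels, against 15.8% of all measured genes. At most 0.5 of them were 2 members, against 2.6% of all measured genes. Of the APOE receptors Lrp1 had 0 and 6 UMIs and Vldlr 0 and 1, too few to compare. Sorl1, a sorting receptor, stood at 609 and 742 CPM, and Hcar2, a niacin receptor, at 2597 and 1907 CPM. None of the 6 measured members of this list was past 2-fold. Proliferation genes were near absent, with Mki67 and Top2a at 0 and Hmgb2 at 401 and 598 CPM.

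**Figure D5:**
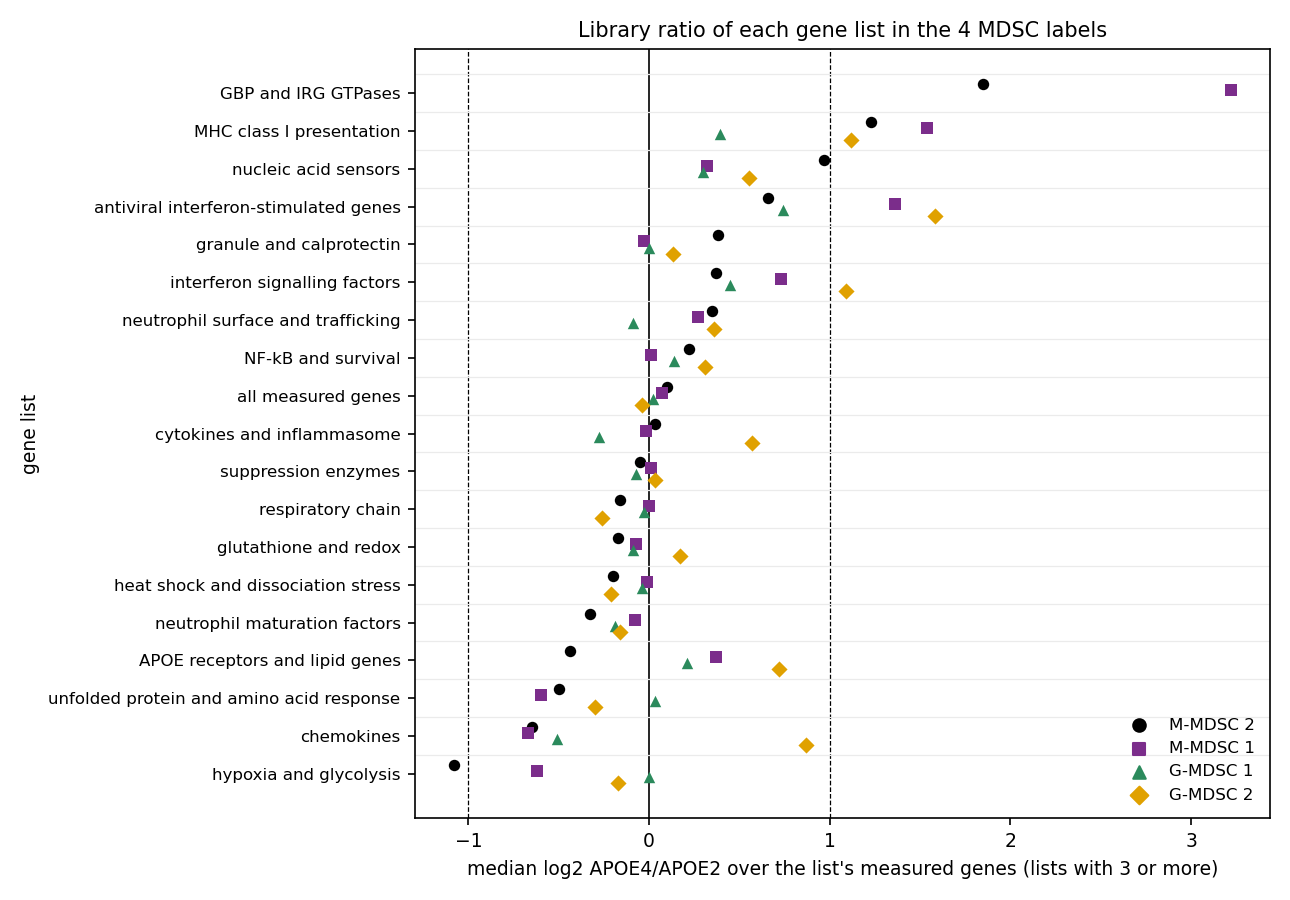
Median log2 APOE4/APOE2 ratio of each gene list (x axis) in the 4 MDSC labels, for lists with at least 3 measured genes in a label, with dashed lines at 2-fold. For M-MDSC 2 (black circles) the GTPase list has the highest median, 1.85, and hypoxia and glycolysis the lowest, -1.08.

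Interferon-induced lists were higher in APOE4 in the other MDSC labels to different extents. The difference was not limited to MDSC labels. Per-cell medians of the antiviral and MHC class I lists were higher in APOE4 in every annotated label. Antiviral medians were 0.165% and 0.359% in stromal cells, 0.052% and 0.185% in mast cells, and 0.332% and 0.442% in B cells. In M-MDSC 1, where 3.83% of 1437 measured genes were past 2-fold higher and 1.6% lower, 13 of 16 measured antiviral genes were past 2-fold higher, with a median log2 ratio of 1.36 against 0.66 in M-MDSC 2. In G-MDSC 1, with 1.86% higher and 0.965% lower among all measured genes, 5 of 15 were past it and the median was 0.74. In G-MDSC 2, with 4.37% higher and 3.37% lower, 11 of 16 were past it and the median was 1.58, but it was -0.01 without cells that held 2 or more UMIs of other cell types' markers, which left 5 APOE2 cells. Of the guanylate-binding proteins and immunity-related GTPases, the 3 measured in M-MDSC 1 were all past 2-fold higher, with a median log2 ratio of 3.22. MHC class I genes were past it for 10 of 12 in M-MDSC 1, with a median of 1.54, for 6 of 11 in G-MDSC 2, with a median of 1.12, and for 0 of 7 in G-MDSC 1, with a median of 0.39. The measured members differ between labels, since fewer pass the filter where the genes are low, and the differences between labels were not tested. For single genes, Rsad2 stood at 119 and 370 CPM in M-MDSC 1, a ratio of 3.1 (2.48 to 3.92), against 1.01 in M-MDSC 2, and Ifit1 at 31.7 and 199 CPM, a ratio of 6.28 (4.18 to 9.74), against 1.31.

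The gap between M-MDSC 2 and the other labels was wider in APOE2. Within the APOE2 library the antiviral list lay above the other 3 labels by a median log2 difference of 3.75, and within APOE4 by 2.61. Relative to M-MDSC 1, Ifit1 was 81.8 times higher in APOE2 and 17.1 times in APOE4, and Rsad2 37 and 12.1 times. Gbp2 was 13.6 and 6.67 times higher. The hypoxia list was lower in APOE4 in M-MDSC 1 too, with 5 of 21 measured members at most 0.5 and a median of -0.62, while in G-MDSC 1 the median was 0.00 over 10 members. By the per-cell median it was lower in APOE4 in every annotated label but Basophils (0.463% and 0.472%) and Skin resident Mø (0.608% and 0.661%). Hilpda stood at 1620 and 699 CPM in M-MDSC 1, so in APOE2 both labels were alike, at 0.901 of the M-MDSC 1 level, and in APOE4 M-MDSC 2 stood at 0.0716 of it.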

How the data were processed

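The authors deposited unscaled UMI counts, made with Cell Ranger 3.0.1 per the file headers, on build mm10 and Seurat 3.0.2 per the submitters' processing notes. A deposited table by the authors gives each annotated cell's library, name, UMI count and percent of mitochondrial UMIs. The naming of cells, the use of strand and the treatment of doublets were not stated in these sources, and no doublet caller was run. Matrix totals differed from the deposited UMI counts by at most 0.89% of a cell.

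Cells were joined by barcode, and counts were summed per label and library over 27998 genes with Python 3.11.15, numpy 2.4.6, scipy 1.17.1 and pandas 2.3.3. Where a library had 0 UMIs, 0.5 was added to both counts for list medians, and single genes were set to a floor of 3 UMIs. CPM carry Poisson intervals, shares Clopper-Pearson intervals and ratios the exact conditional binomial interval, all at 95%. Level against other labels is the mean CPM of both libraries over the mean of 3 labels. Genes named were the 15 highest and 10 lowest against other labels (at least 200 CPM), the 12 highest and 12 lowest library ratios ranked by the interval bound nearest 1, the 5 markers, and up to 4 members past 2-fold of each of 22 lists. Genes of ribosomal proteins, mitochondria, sex chromosomes, haemoglobins and receptor segments were not named. Members, lists and markers were chosen with earlier results of these data known. Other genes are named to complete a list. The ratio, its interval and the 2-fold rule were tested on simulated counts. Genes that 1 cell could carry were recomputed without the cell of each library that held most of their UMIs, a check added after seeing the data.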

Additional observations from a re-analysis of the deposited data

Results flagged for a closer look

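Lcn2 had opposite library differences in the 2 M-MDSC labels: the APOE4/APOE2 ratio was 5.94 in M-MDSC 2 (2.27 to 22.1) and 0.7856 in M-MDSC 1 (0.635 to 0.97). The difference was not tested, since each label has 1 library per genotype, and the M-MDSC 2 value rests on 4 UMIs in APOE2.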

How the results depend on the processing

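The main limits are the 36 APOE2 cells and the single library per genotype: 16 CPM per UMI in APOE2 gives wide intervals to genes with few UMIs there. Of 112 alternative values of the main results 83 stayed within 1.5 times or 1 spread of the reported one and 29 moved. Genes at least 2-fold higher in APOE4 (108) numbered 246 and 43 at a minimum mean of 50 and 200 CPM, 278 and 30 at a fold of 1.5 and 3, and 192 in cells thinned to 500 UMIs. Genes lower in APOE4 (88) numbered 221 and 37, 228 and 27, and 164 under the same settings, and 150 in cells without 2 or more UMIs of other cell types' markers, which kept 25 APOE2 and 151 APOE4 cells. That filter used markers of T, NK, B, macrophage, conventional DC and migratory DC cells. Monocyte and plasmacytoid DC markers were not part of it. Against other MDSC labels, the antiviral median log2 difference (2.96) was 3.75 in the APOE2 library alone. That of the GTPases (3.13) was 4.05 there and 2.25 against M-MDSC 1 alone. That of hypoxia and glycolysis (0.30) was -0.43 with UMIs summed over the other labels and -0.31 against M-MDSC 1 alone, so no direction is given for it. Shares of cells with a UMI, higher at more UMIs per cell by construction, were for thinning to 1000 UMIs and without thinning 83.87% and 86.11% (Slfn4, APOE2), 91.11% and 96.32% (Slfn4, APOE4), 83.33% and 92.11% (Rsad2, APOE4), 82.78% and 88.42% (Ifit1, APOE4), and 87.78% and 92.63% (Irg1, APOE4). Without thinning they were 72.22% (Ifit1, APOE2), 80.56% (Irg1, APOE2) and 7.895% (Il23a, APOE4). Of 802 single values 42 moved and 2 reversed: the antiviral list in G-MDSC 2 had a median of -0.01 without cells holding other cell types' markers (5 APOE2 cells left), and Ly6g, with 6 UMIs in all, had a log2 ratio of -0.81 in thinned cells. Except where a setting changes the genes or cells entered, the cause was not tested. In the label itself the median log2 APOE4/APOE2 ratio of the GTPase list stayed between 1.73 and 1.91 over the settings run. That of the antiviral list stayed between 0.53 and 0.75, that of MHC class I between 1.04 and 1.38, and that of hypoxia and glycolysis between -1.32 and -0.63. No paired analysis was possible because each genotype has 1 library.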
